A study of Homo sapiens with 8 samples.

Results

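Messenger RNA of 10 genes of the integrated stress response was followed in human keratinocytes whose mitochondria had been depolarized. The genes were the bZIP transcription factors ATF4, ATF5, DDIT3, ATF3, JDP2, CEBPB, CEBPG and CEBPD and their partners without a bZIP domain, TRIB3 and NUPR1. They were chosen by symbol from the 61806 genes of the count table, and each symbol matched 1 gene. The cells were N/TERT-1, an immortalized line of epidermal keratinocytes of wild-type (WT) genotype. One group of 4 libraries came from cells given ethanol, the solvent control, and the other group of 4 from cells given oligomycin and antimycin A (O/A) for 4 hours. Oligomycin inhibits the mitochondrial ATP synthase and antimycin A inhibits complex III of the respiratory chain, and O/A stands for 10 µM oligomycin with 4 µM antimycin A, the doses given for the imaging experiments. The libraries of each group came from 4 independent experiments with this single line.

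The integrated stress response begins with kinases that phosphorylate the translation initiation factor eIF2α. Protein synthesis then falls in general, while a few mRNAs with upstream open reading frames, ATF4 among them, are translated better. ATF4 activates genes of amino acid synthesis, amino acid transport and tRNA charging, and it also activates further transcription factors, which pair with it or with each other through their leucine zippers. Mitochondrial damage can reach the pathway through OMA1, DELE1 and the kinase HRI (EIF2AK1).

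Between 17210404 and 20999927 reads were counted in the ethanol libraries and between 17689760 and 19263046 in the O/A libraries. All 12 keratinocyte markers examined had at least 1328 counts in every library, and their summed level per length was 6921 to 7284 FPKM in ethanol and 6243 to 6495 FPKM in O/A. Of the 12, 3 were called changed by the rule given with the members' results, KRT5 (log2(FC) -0.30) and SFN (-0.28) lower in O/A and KRT16 (0.39) higher. The summed levels of 6 melanocyte and 6 fibroblast markers each stayed below 3 FPKM in every library, and the melanocyte markers MLANA and TYR were at 0 in every library, and none of the 3 of these 12 markers that could be tested was called. Immune cell markers summed to 0.66 to 0.97 FPKM in ethanol and 0.87 to 1.19 FPKM in O/A, and CD68, the 1 that could be tested, was called higher in O/A (log2(FC) 0.56). The part of these marker differences in the members' results was not tested. In such bulk samples, fewer cells of a type and less RNA per cell cannot be told apart. Libraries of the same group gave chi-square values of 1.81 to 6.19 for each degree of freedom (10592 genes) and libraries of different groups values of 58.0 to 70.1, so each library was counted as a separate sample.

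Of the 10 genes, 8 were upregulated in O/A and 1, ATF5, was downregulated, and NUPR1 had too few reads to be tested. A gene was called changed when edgeR's quasi-likelihood test gave a Benjamini-Hochberg adjusted p-value of at most 0.05 and the absolute log2(FC) was above 0.25. Under this rule 34.7% of the 14893 genes tested were called, 15.8% upregulated and 18.9% downregulated. All 8 upregulated members also had a log2(FC) above 1, a level that 2.56% of the genes tested reached. The median log2(FC) of the 9 members tested was 1.82, beside a median of -0.0004 and a 5th to 95th percentile range of -0.76 to 0.72 over all genes tested. For all 9, every O/A library lay on one side of every ethanol library, as it did for 47.6% of the genes tested, and each gave an exact permutation p of 0.0286 (two-sided), the smallest that 4 libraries against 4 allow. A separation of this kind was common in these data. The log2(FC) of ATF5 lay within the 5th to 95th percentile range of all genes.

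**Figure D1:**
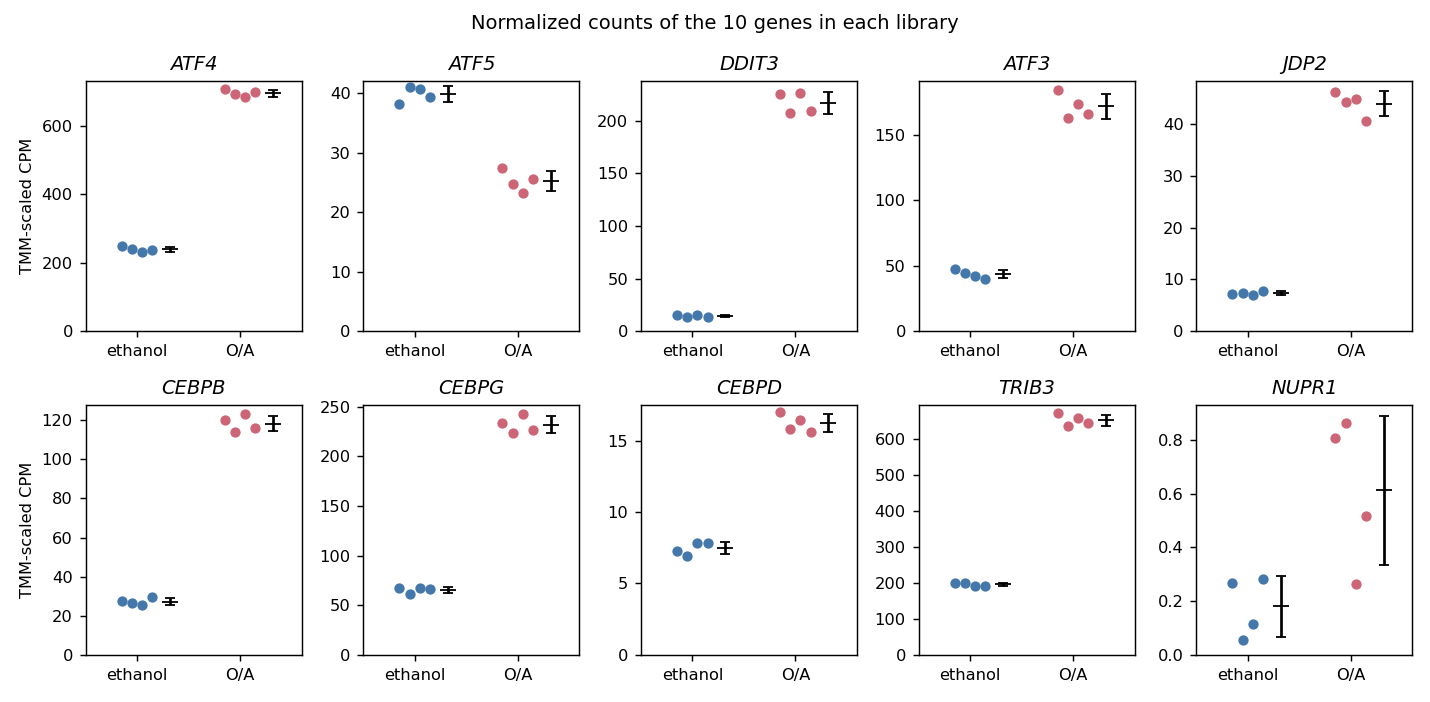
Normalized counts (TMM-scaled CPM, vertical axes from 0, each with its own range) of the 10 genes in the 4 ethanol (blue) and 4 O/A (red) libraries, drawn in order of replicate number, with the mean and SD beside them in black. The groups were separate for 9 genes, with ATF5 alone lower in O/A, and they overlapped for NUPR1.

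The matches to the C/EBP-ATF composite element are shown first, since ATF4 and its C/EBP partners bind sequences of this kind and the members include both the binding factors and their target genes. The letters searched were TGATGCAA and, on the other strand, TTGCATCA, in windows of 1500 bases of GRCh38 that began 1000 bases before each RefSeq transcription start. RefSeq starts were found for 8 of the 10 genes, with no entry for CEBPD and NUPR1, and each of the 8 had 2 or 3 starts. A match was present for DDIT3, JDP2, CEBPG and TRIB3, and these letters were not in the windows of ATF4, ATF5, ATF3 and CEBPB. In the stretches printed here, which run 5′ to 3′ on the strand of the gene, capitals mark the match.
DDIT3: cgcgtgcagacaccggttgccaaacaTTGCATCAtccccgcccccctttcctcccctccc
JDP2: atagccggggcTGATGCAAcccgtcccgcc
CEBPG: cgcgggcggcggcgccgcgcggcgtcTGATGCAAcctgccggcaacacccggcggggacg
TRIB3: ttagctccggtTTGCATCAcccggaccggg
The stretch of DDIT3 lies at chr12:57520787-57520846 on the minus strand, with the match 303 and 306 bases upstream of its RefSeq starts, inside the DDIT3 and MBD6 genes but in no exon. That of JDP2 lies at chr14:75427995-75428024 on the plus strand and reaches just past the second of 3 starts. The match lies 16 bases upstream of that start, inside the JDP2 gene but in no exon. The stretch of CEBPG lies at chr19:33374045-33374104 on the plus strand, in an intron, with the match 42 bases upstream of the later of its starts. TRIB3 had 3 matches spaced by 33 bases on chromosome 20, each in the same 30 bases of sequence, and the copy given is the middle one at chr20:380914-380943 on the plus strand, 370 bases upstream of the first RefSeq start and in an exon of TRIB3 in GENCODE version 44.

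A match was found in 3.36% of all 35116 windows, for 3.19% of the 10700 tested genes with a start in RefSeq, and for 5.51% of the 1705 upregulated ones among them. Beside these shares, 4 of 8 members had one, as had 12 of 28 target genes of the integrated stress response with an entry and 1 of 39 other bZIP genes. A gene counted when any of its windows held a match. The 8 members had 19 windows, while all 27305 genes had 35116, so more sequence was searched for each member than for most genes. The 4 members with a match had log2(FC) values of 3.90 (DDIT3), 2.58 (JDP2), 1.82 (CEBPG) and 1.74 (TRIB3). The 4 without had 2.11 (CEBPB), 1.98 (ATF3), 1.54 (ATF4) and -0.66 (ATF5). The log2(FC) ranges of the 2 sets overlapped. A match is a description of the letters and binding was not measured.

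ATF4, the factor whose translation defines the pathway, lies on chromosome 22 from 39519695 to 39522683 (ENSG00000128272, GRCh38). Its normalized counts, scaled to the size and composition of each library (CPM), were 248, 240, 231 and 237 in ethanol replicates 1 to 4 and 707, 692, 683 and 700 CPM in O/A replicates 1 to 4. The O/A libraries were all higher and the libraries of each group lay close together. ATF4 was upregulated with a log2(FC) of 1.54 (SE 0.0265, edgeR quasi-likelihood test with adjusted p = 2.55e-43), a 2.91-fold rise. The processed pseudogenes ATF4P3 and ATF4P4 held 0.183% and 0.022% as many counts as ATF4, and ATF4P1 and ATF4P2 were at 0.

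ATF5, a paralog of ATF4 that is also translated through upstream open reading frames and is known from the mitochondrial unfolded protein response, went the other way. It lies on chromosome 19 from 49928702 to 49933935 (ENSG00000169136) and had 38.1, 41.0, 40.7 and 39.3 CPM in ethanol and 27.4, 24.7, 23.2 and 25.6 CPM in O/A. Every O/A library was lower than every ethanol library. The log2(FC) was -0.66 (SE 0.0534, edgeR quasi-likelihood test with adjusted p = 2.46e-15). On the opposite strand NUP62, a nuclear pore gene, overlaps ATF5 over 1063 bases, had 149% as many counts as ATF5 and was also downregulated, with a log2(FC) of -0.72. Whether reads were counted by strand is not given in the sources used here, and the part of NUP62 reads in the ATF5 value was not tested.

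DDIT3 encodes CHOP, which pairs with C/EBP factors and is known for its part in cell death under prolonged stress. It had the largest change of the 10 genes. It lies on chromosome 12 from 57516588 to 57521737 (ENSG00000175197) and had 15.5, 13.5, 15.6 and 13.6 CPM in ethanol and 225, 207, 226 and 209 CPM in O/A. The lowest O/A library stood far above the highest ethanol library. The log2(FC) of 3.90 (SE 0.0451, edgeR quasi-likelihood test with adjusted p = 1.41e-47), a 14.9-fold rise, ranked 7 among the rises of all genes tested. MARS1 overlaps DDIT3 over 982 bases and MBD6 over 1028 bases, both on the opposite strand, and their log2(FC) values were 0.95 and 0.51. MARS1 had 175% and MBD6 36.0% as many counts as DDIT3 over all libraries. In ethanol libraries MARS1 had 2410 to 2873 and MBD6 555 to 782 counts, against 241 to 290 for DDIT3. In O/A libraries MARS1 had 4547 to 4982 and MBD6 789 to 916 counts, against 3632 to 4269 for DDIT3. The part of MARS1 and MBD6 reads in the DDIT3 value was not tested. MIR616, inside DDIT3 on the same strand, had 1.31% as many counts as DDIT3.

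**Figure D2:**
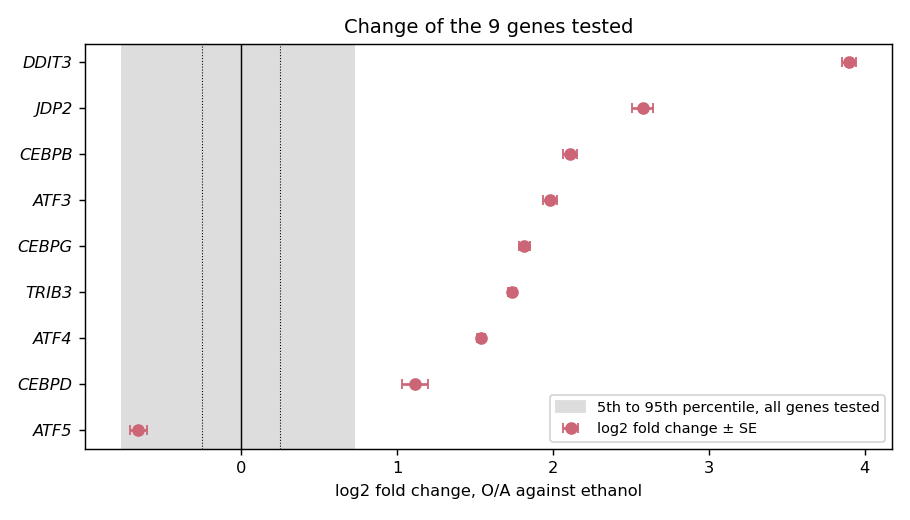
Log2(FC) of O/A against ethanol with its SE for the 9 genes tested, ordered by size; the grey band is the 5th to 95th percentile of all 14893 genes tested and the dotted lines mark the threshold of 0.25. The 8 upregulated genes lie to the right of the band, from 1.12 for CEBPD to 3.90 for DDIT3, and ATF5 lies inside it at -0.66.

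ATF3 and JDP2 encode small bZIP proteins that bind AP-1 and CRE sites and often repress them. ATF3, an early stress gene on chromosome 1 from 212565334 to 212620777 (ENSG00000162772), had 47.5, 44.2, 42.5 and 40.1 CPM in ethanol and 184, 163, 174 and 166 CPM in O/A. JDP2, on chromosome 14 from 75427716 to 75474111 (ENSG00000140044), had 7.16, 7.46, 7.01 and 7.76 CPM in ethanol and 46.1, 44.2, 44.8 and 40.5 CPM in O/A. Both were higher in every O/A library. The log2(FC) was 1.98 for ATF3 (SE 0.0445, adjusted p = 1.29e-23) and 2.58 for JDP2 (SE 0.0664, adjusted p = 1.14e-35) by the edgeR quasi-likelihood test. JDP2, the second largest rise of the 10 genes, started from a low level, with 123 to 165 counts per ethanol library.

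The 3 C/EBP members were all upregulated, by unequal amounts. CEBPB, a partner of ATF4 that also serves inflammation and keratinocyte differentiation, had 27.6, 26.4, 25.7 and 29.4 CPM in ethanol and 120, 114, 123 and 116 CPM in O/A. CEBPG, which lacks a strong activation domain of its own and pairs with ATF4, had 67.6, 61.3, 67.7 and 66.5 CPM in ethanol and 234, 224, 243 and 227 CPM in O/A. CEBPD, an inducible factor of the acute phase response, had 7.27, 6.95, 7.80 and 7.80 CPM in ethanol and 17.0, 15.8, 16.4 and 15.6 CPM in O/A. No O/A library overlapped an ethanol library for any of the 3. The log2(FC) was 2.11 for CEBPB (SE 0.0427, adjusted p = 2.83e-40), 1.82 for CEBPG (SE 0.0338, adjusted p = 1.09e-41) and 1.12 for CEBPD (SE 0.0830, adjusted p = 1.17e-16) by the edgeR quasi-likelihood test. CEBPB lies on chromosome 20 from 50190830 to 50192668 (ENSG00000172216), CEBPG on chromosome 19 from 33373685 to 33382686 (ENSG00000153879) and CEBPD on chromosome 8 from 47736913 to 47738164 (ENSG00000221869). CEBPB-AS1 overlaps CEBPB over 669 bases on the opposite strand and had 1.97% as many counts.

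TRIB3 encodes a pseudokinase that is induced by ATF4 and CHOP and restrains them. It lies on chromosome 20 from 362835 to 397559 (ENSG00000101255) and had 199, 201, 192 and 192 CPM in ethanol and 672, 637, 659 and 645 CPM in O/A. The groups were far apart, and the log2(FC) was 1.74 (SE 0.0271, edgeR quasi-likelihood test with adjusted p = 2.71e-45). Its relatives moved in different directions: TRIB1 was upregulated with a log2(FC) of 1.78 and TRIB2 downregulated with one of -1.46.

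NUPR1, a small stress-induced chromatin protein, was hardly detected. It lies on chromosome 16 from 28532708 to 28539008 (ENSG00000176046) and had 5, 1, 2 and 6 counts in the ethanol libraries and 14, 16, 5 and 9 in the O/A libraries. O/A replicate 3 lay within the range of the ethanol libraries and the other 3 O/A libraries lay above it. Since fewer than 4 libraries reached 10 counts, NUPR1 was not tested with the other genes, and the difference of its mean log2(CPM + 0.1) was 1.34 (exact permutation p = 0.0857, two-sided). In a fit without the filter on low counts, added after seeing the data, its log2(FC) was 1.68 (edgeR quasi-likelihood test, adjusted p = 0.00258). On other scales the difference was smaller, 0.63 on log2(FPKM + 0.1) and 0.10 on log2(FPKM + 1), each with an exact permutation p of 0.0857. NUPR2 was at 0 in every library.

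Levels of different genes were compared per length, as FPKM. In ethanol ATF4 was the highest at 92.8 ± 2.44 FPKM (SD, n = 4), followed by TRIB3 at 60.4 ± 1.44. CEBPG (16.4 ± 0.762), CEBPB (15.1 ± 0.854) and ATF5 (13.3 to 14.4) came next, and neighbours among them overlapped between libraries. DDIT3 (11.3 ± 0.902) and ATF3 (10.9 ± 0.758) also overlapped. Below these were CEBPD at 6.04 ± 0.348, JDP2 at 1.19 ± 0.0538 and NUPR1 at 0.0325 ± 0.0206 FPKM.

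In O/A no neighbours in the order overlapped. ATF4 (262 ± 4.00 FPKM, SD, n = 4) and TRIB3 (195 ± 4.42) remained first and second, and DDIT3 moved from place 6 to place 3 at 163 ± 7.27. CEBPB (63.2 ± 2.15) now lay above CEBPG (56.1 ± 1.95), followed by ATF3 (41.8 ± 2.27), CEBPD (12.7 ± 0.468), ATF5 (8.57 ± 0.607), JDP2 (6.90 ± 0.383) and NUPR1 (0.108 ± 0.0465). ATF5 fell from place 5 to place 8, below CEBPD. The normalized counts of the 10 genes summed to 630 to 659 CPM in ethanol and 2122 to 2234 CPM in O/A, and TRIB3 made up 30.3 to 31.4% of that sum in ethanol and at most 30.1% in O/A. The share of ATF4 was 36.6 to 37.7% in ethanol and 31.2 to 32.6% in O/A.

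**Figure D3:**
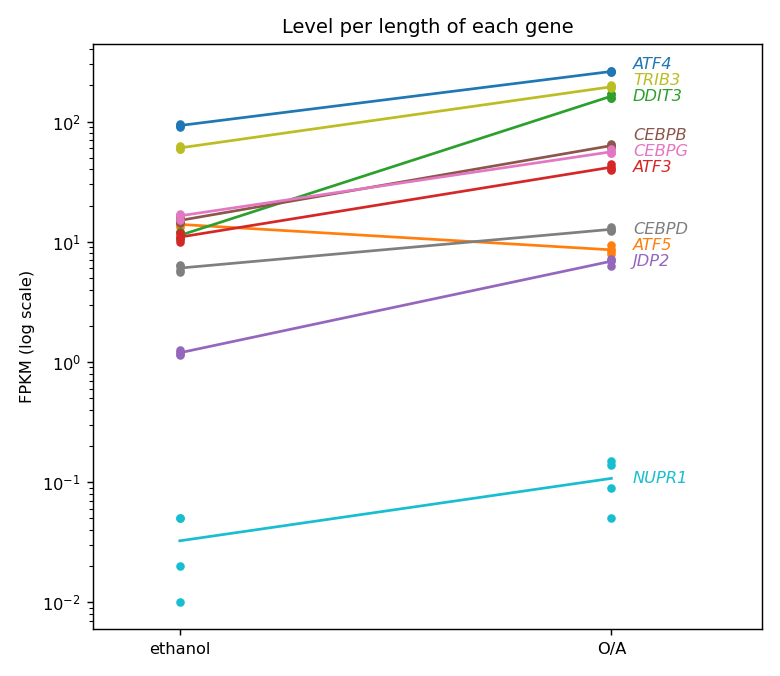
Level per length (FPKM, log axis) of each of the 10 genes in ethanol and O/A; points are single libraries and lines join the group means. DDIT3 rises from 11.3 to 163 FPKM and crosses 3 other genes, ATF5 is the only line that falls, and NUPR1 stays below 1 FPKM in both groups.

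Ratios of genes within a library do not depend on the scaling between libraries. The log2 ratio of counts, each plus 0.5, was compared for 9 pairs, and the p-values were adjusted over them. DDIT3 over ATF4 rose from -4.04 ± 0.12 to -1.68 ± 0.07 (mean ± SD, n = 4), a change of 2.35 on the log2 scale. ATF5 over ATF4 fell from -2.59 ± 0.08 to -4.79 ± 0.08, a change of -2.20. Both changes were far larger than the spread within a group.

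TRIB3 over DDIT3, an inhibitor against the factor that induces it, changed by -2.16 on the log2 scale. Among the C/EBP genes, CEBPB over CEBPG changed by 0.30, CEBPD over CEBPB by -0.998 and CEBPD over CEBPG by -0.70. ATF3 over ATF4 changed by 0.44 and JDP2 over ATF3 by 0.60. In each of these 8 pairs the groups did not overlap, with an exact permutation p of 0.0286 (two-sided) and an adjusted p of 0.0322. NUPR1 over ATF4 overlapped between the groups, with a change of 0.15 and an exact permutation p of 0.8, and it turned negative without ethanol replicate 2 (-0.22), O/A replicate 1 (-0.012) or O/A replicate 2 (-0.053). On FPKM, each plus 0.1, its change was -0.86 with an exact permutation p of 0.0286. NUPR1 had only 0.01 to 0.15 FPKM, so the added 0.1 made up much of the numerator and the ratio falls when ATF4 rises. That p therefore cannot show a change of NUPR1 against ATF4, and the direction of the ratio depended on the scale.

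**Figure D4:**
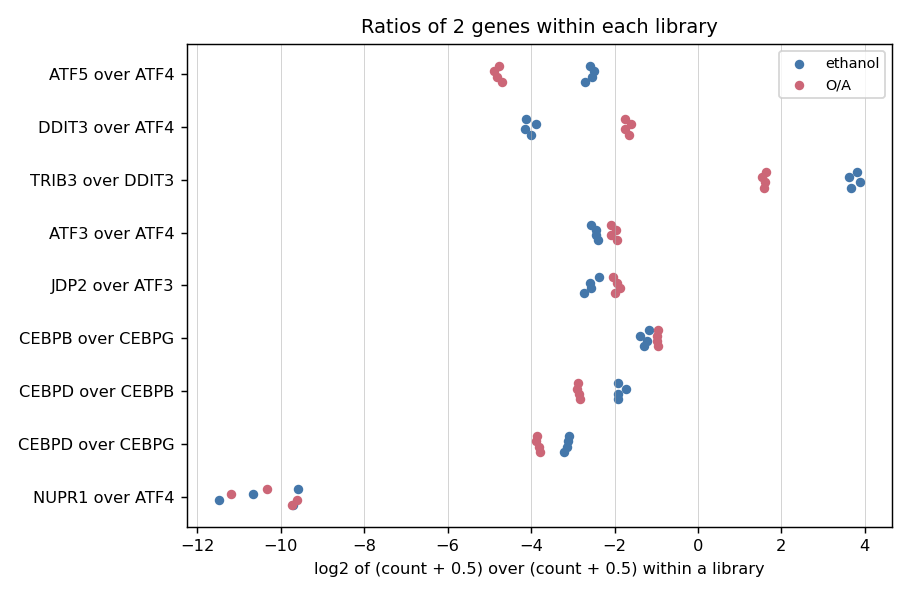
Log2 of the ratio of counts, each plus 0.5, for 9 pairs of genes in the 4 ethanol (blue) and 4 O/A (red) libraries. The groups are separate for the first 8 pairs and mixed for NUPR1 over ATF4.

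The members were also set beside the other bZIP genes. Of 54 bZIP genes examined, 46 were tested, and the 5 largest log2(FC) values were those of DDIT3, JDP2, CEBPB, ATF3 and CEBPG, with ATF4 in place 10, CEBPD in place 15 and ATF5 in place 44. CEBPG (1.82, SE 0.0338) and the next gene, XBP1 (1.79, SE 0.0315), which is not a member, lay too close for their order to be resolved. Of the 38 tested that are not members, 19 were upregulated and 4 downregulated, with a median log2(FC) of 0.30. Among these 38, 60.5% were called, beside 34.7% of all genes tested. The largest rises among these were those of XBP1, a factor of the unfolded protein response (1.79), the small Maf gene MAFF (1.74) and NFIL3, a repressor of the PAR bZIP family (1.71). BACH2 (-0.73) and MAF (-1.40) were downregulated, but on log2(FPKM + 1) they had -0.19 and -0.16, within the fold threshold, and neither reached a mean FPKM of 1. NFE2 had a log2(FC) of -0.63 that did not pass the test (edgeR quasi-likelihood test, adjusted p = 0.128). The fourth C/EBP gene tested, CEBPA, a factor of differentiated cells named here after its value was seen, had a log2(FC) of -0.34. Its call was lost without ethanol replicate 3 (-0.24), ethanol replicate 4 (-0.29) or O/A replicate 3 (-0.31). JUN, with a log2(FC) of 0.22 that did not pass, was called upregulated without ethanol replicate 1 (0.26).

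Of 35 known target genes of the integrated stress response, 33 were tested, 31 were upregulated and 1 was downregulated, with a median log2(FC) of 1.57. Called genes made up 97.0% of those tested, beside 34.7% of all genes tested. This list, like the others, was chosen with earlier results of these data known, so its share is not independent evidence. ASNS, the asparagine synthetase gene, had a log2(FC) of 5.22, CHAC1, which degrades glutathione, 4.88, and the secreted glycoprotein STC2 4.32. At the lower end, PYCR1, of proline synthesis, was upregulated with 0.49. SLC7A5, a large neutral amino acid transporter, had 0.16 and did not pass the threshold, and ALDH18A1, also of proline synthesis, was downregulated (-0.48).

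Of 10 genes described as targets of CHOP, 8 were upregulated, with a median log2(FC) of 0.95. In both directions together 90.0% of the list was called, beside 34.7% of all genes tested. CHAC1, the chaperone gene DNAJB9 (3.35) and the eIF2α phosphatase subunit PPP1R15A (2.32) were the highest, and the death receptor TNFRSF10A (0.45) was the lowest of those upregulated. ERO1A, an oxidase of the endoplasmic reticulum, had 0.10 and did not pass. BCL2L11, which encodes the pro-apoptotic BIM, was downregulated with -0.27, and this call was lost without ethanol replicate 3 (-0.19) or O/A replicate 1 (-0.24), under quantile normalization (-0.17) and on log2(FPKM + 1) (-0.19). CHAC1 and EIF4EBP1 belong to both target lists.

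The genes upstream of ATF4 had a median change near that of all genes tested. Of 15 genes for eIF2α kinases, eIF2, eIF2B, phosphatase subunits and the mitochondrial relay, 5 were upregulated and 1 downregulated. The median log2(FC) of the list was 0.02, and 40.0% of it was called, beside 34.7% of all genes tested. PPP1R15A, which also stands among the CHOP targets, EIF2AK3, the kinase PERK (1.09), and PPP1R15B (0.64) rose most, and EIF2B2 (0.31) and DELE1 (0.26), named after their values were seen, were also upregulated. The call of DELE1 was lost without ethanol replicate 3, O/A replicate 3 or O/A replicate 4, where its log2(FC) was 0.24 each time. OMA1, the mitochondrial protease, was downregulated (-0.55), and EIF2S1, which encodes eIF2α (-0.13), and GCN1 (-0.20) had an adjusted p below 0.05 but did not reach the fold threshold, which GCN1 passed under quantile normalization (-0.26). Of the other 3 eIF2α kinases, also named after their values were seen, EIF2AK1 had a log2(FC) of -0.07, EIF2AK2 0.09 and EIF2AK4 -0.08, and none passed both thresholds.

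Of 12 chaperones and proteases of the mitochondrial unfolded protein response, with which ATF5 is associated, HSPA9 (0.50) and LONP1 (0.41) were upregulated and HTRA2 (-0.51) downregulated, and the median log2(FC) was -0.04. YME1L1 (0.17), DNAJA3 (-0.13) and SPG7 (-0.18) did not reach the fold threshold.

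**Figure D5:**
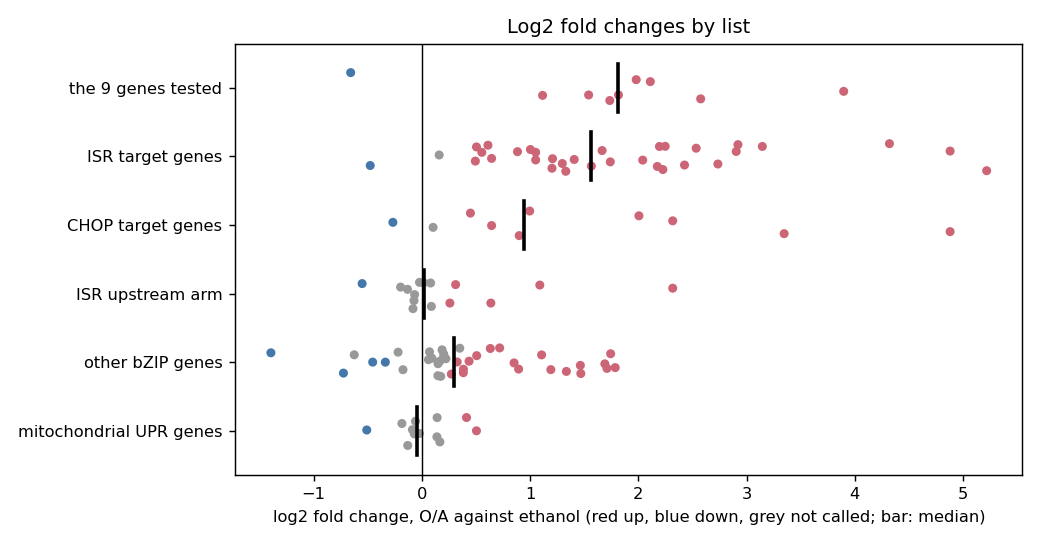
Log2(FC) of O/A against ethanol for single genes of each list (points; red upregulated, blue downregulated, grey not called) with the median of the list as a black bar; vertical spread within a row has no meaning. The medians are 1.82 for the 9 members tested, 1.57 for target genes of the integrated stress response, 0.95 for CHOP targets, 0.02 for the upstream arm, 0.30 for other bZIP genes and -0.04 for mitochondrial unfolded protein response genes.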

How the data were processed

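The deposited counts are raw counts per Ensembl gene, which the authors obtained with HISAT2 2.0.1 (alignment to GRCh38.p13, paired ends) and HTSeq 0.6.1. The deposited FPKM values equal count scaled by exonic length and library total within 0.005. A deposited table of the authors' DESeq2 comparison was not used.

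The main test was edgeR's quasi-likelihood test (edgeR 4.0.16, R 4.3.3; robust, TMM factors, Benjamini-Hochberg adjustment), over genes that reached 10 counts in 4 or more libraries. The SE of a log2(FC) was its absolute value divided by the square root of the F statistic of this test. Single values were compared by exact permutation tests. The test was tested on simulated data with known changes. The symbols and gene lists were chosen with earlier results of these data known. All 10 genes are named, with the 3 highest and 3 lowest of each list. Promoter windows were placed on RefSeq starts. Alternatives were DESeq2 1.42.0, limma 3.58.1 on FPKM with 0.1 or 1 added, median-ratio or quantile scaling, other filters and thresholds, a replicate block and each library left out. One marker gene is not reported here.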

Additional observations from a re-analysis of the deposited data

How the results depend on the processing

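For the 9 members tested, the direction and call were the same in 144 of 144 alternative fits, and JDP2 moved most, to 1.85 with limma on log2(FPKM + 1), where a pseudocount lowers the change of low genes. A replicate block gave 5160 called genes against 5165, 5117 of them shared, with 8 members up and 1 down. Libraries of the same number showed no detectable shared deviation (correlations of same-numbered deviations -0.03 to 0.07). Such values cannot show whether these libraries came from the same experiment. An exact sign-flip test of 4 pairs cannot go below 0.125. For the log2 ratio NUPR1 over ATF4, pairing by replicate number cannot alter the mean change of 0.15, and the paired differences ranged from -0.72 to 1.87. The change was -0.86 on FPKM + 0.1 (exact permutation p = 0.0286) and -0.22 to 0.48 with each library left out. The -0.86 cannot be read as a change of NUPR1, whose FPKM values were about the size of the added 0.1 or less. NUPR1 had a log2(FC) of 1.68 without the filter, and 0.63 and 0.10 on FPKM with 0.1 and 1 added. ERO1A turned to -0.0102 under quantile normalization.

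At an absolute log2(FC) above 1, 382 genes were upregulated and 415 downregulated, no member was downregulated (0), and the lists gave 0 downregulated integrated stress response targets, 4 up and 0 down for CHOP targets, 2 and 0 for the upstream arm, 9 and 1 for other bZIP genes and 0 and 0 for mitochondrial unfolded protein response genes. With no fold threshold, 3868 genes were upregulated, the upstream arm had 4 downregulated, and the mitochondrial list had 5 up and 3 down. On log2(FPKM + 1), 1514 genes were upregulated, with 0 CHOP targets down, 3 upstream genes up and 1 other bZIP gene down. Quantile normalization gave 0 CHOP targets and 2 upstream genes down, and a mean FPKM of at least 1 left 2 other bZIP genes down. Leaving out each library gave 0 to 1 CHOP targets down. The causes of these shifts were not tested. Reads per library limit NUPR1, at 1 to 16 counts.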
